A study of Mus musculus with 12 samples.

Results

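Collagen chain genes were followed in 12 mouse RNA-seq libraries. They are the 44 genes, of 24054 counted, whose symbol is Col followed by a type number, the letter a and a chain number. Membership is set by the symbol and not by a measured value. BT-T libraries came from tumours with the genotype BrafV600E;Tgfbr2-/-, that is an activated Braf kinase together with loss of Tgfbr2, a receptor for TGF-beta. BTPRZ-T libraries came from tumours that carried the same alleles and in addition were Rnf43-/- and Znrf3-/-, lacking a pair of ubiquitin ligases that restrain WNT signalling, and p16 Ink4a-/-, lacking a brake on the cell cycle. N libraries were wild-type normal colon adjacent to the tumours. Tumours grew from edited colonic organoids placed in recipient mice, all libraries are labelled with the immunodeficient strain NSG, and each group holds 4 libraries. The labels record no sorting of grafted cells from host tissue. In such bulk samples, fewer cells of a type and less RNA per cell cannot be told apart. Whether the replicates of a group are different mice is not stated, so p-values measure the spread between these libraries, which may be in part technical.

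Collagens are secreted or membrane-bound proteins whose chains wind into trimers. Fibrillar collagens build the cable-like fibres of connective tissue and are made mainly by fibroblasts. Network-forming type IV collagen underlies epithelia, endothelia and smooth muscle as basement membrane. FACIT collagens (fibril-associated collagens with interrupted triple helices) sit on fibre surfaces, type VI collagen forms beaded filaments, short chain collagens form open networks, and a few collagens span the plasma membrane. In the colon the interstitial fibres lie in the lamina propria and submucosa, and the muscle layers carry their own basement membranes.

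Each library held between 15732004 and 26052772 gene reads. Levels are CPM, read counts scaled to the library size that TMM factors give, with the SD over 4 libraries. A log2 fold change is given with its standard error, and a chain was called where the edgeR quasi-likelihood test gave a Benjamini-Hochberg adjusted p under 0.05 over 14860 genes. N replicate 2 stood apart from the other N libraries, with 10.96% of its gene reads on ribosomal protein genes (1.59 to 1.94% for N replicates 1, 3 and 4) and the steepest tilt towards short transcripts. BTPRZ-T replicate 1 came next with 9.09%. N replicate 2 and BTPRZ-T replicates 1 and 4 had the fewest genes with a read, 13450 to 14697, against 16131 to 17266 in the other 9 libraries. Positions are gene bounds in GENCODE on GRCm38, the mouse build also called mm10. Of the 44 chains, 39 had enough reads to be tested. The untested chains were Col2a1, Col4a4, Col9a1, Col19a1 and Col26a1, with at most 49 reads over any group.

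Collagen chains held a larger share of the reads in every tumour library than in any N library. They made up 1.90 ± 0.435% of gene reads in BT-T libraries, 0.705 ± 0.431% in BTPRZ-T libraries and 0.252 ± 0.0800% in N libraries (mean and SD, n = 4 each). BTPRZ-T replicate 4, at 1.34%, stood above the other BTPRZ-T libraries, which lay between 0.384 and 0.593%. Fibrillar chains held 1.30 ± 0.344% of gene reads in BT-T, 0.426 ± 0.325% in BTPRZ-T and 0.119 ± 0.0292% in N. Basement membrane chains came next, with 0.354 ± 0.0974% in BT-T, 0.176 ± 0.0610% in BTPRZ-T and 0.0634 ± 0.0257% in N. These summed shares are descriptions and carry no test.

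**Figure D1:**
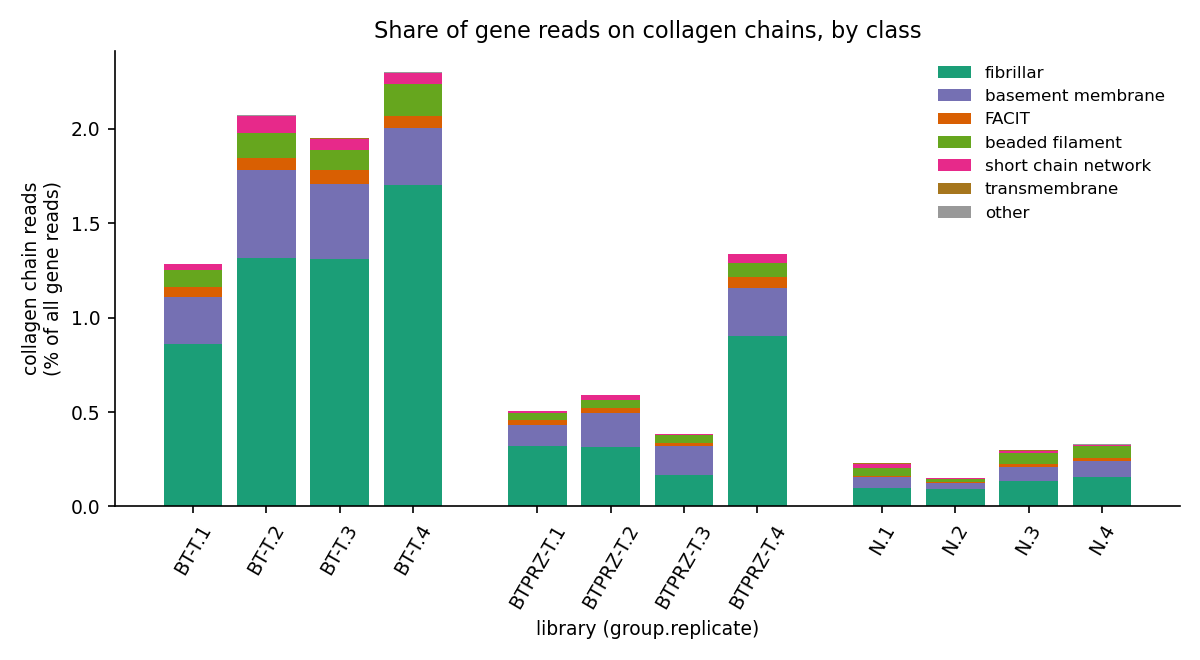
Stacked bars give the percent of all gene reads that fell on collagen chains in each library (group.replicate), split by collagen class, on an axis that starts at 0. All 4 BT-T libraries reach 1.29% or more, BTPRZ-T replicate 4 reaches 1.34%, and the 4 N libraries stay at or under 0.328%.

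In BT-T against N, 17 of the 39 tested chains were called higher, against 5.67% of all genes tested, and 0 were called lower, against 2.9% of all genes. At an unadjusted p under 0.05, 23 chains differed in this comparison, against 24.1% of all genes. DESeq2 and limma voom likewise called 0 lower, against 7.26% and 2.91% of all genes. Sample quality weights called 2 lower, against 21.3% of all genes. The fit without N replicate 2 also called 2 (5.7%), as did that without the 3 libraries with the fewest genes (12.6%). The median log2 fold change of the 39 chains was 1.83, beside -0.10 over all genes. The BT-T and N libraries did not overlap in 23 of the 39 chains, against 22.4% of all genes, and the 17 called chains were among them. In BTPRZ-T against N, 11 chains were called higher, against 5.66% of all genes, and 3 were called lower, against 6.18% of all genes. At an unadjusted p under 0.05, 18 chains differed, against 25.5% of all genes, and the median was 0.93, beside -0.11 over all genes. The BTPRZ-T and N libraries did not overlap in 13 of the 39 chains, against 14.5% of all genes, and in 11 of the 14 called chains. All 11 chains called higher in BTPRZ-T were among the 17 called higher in BT-T. The N libraries serve both comparisons, which are therefore not independent.

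**Figure D2:**
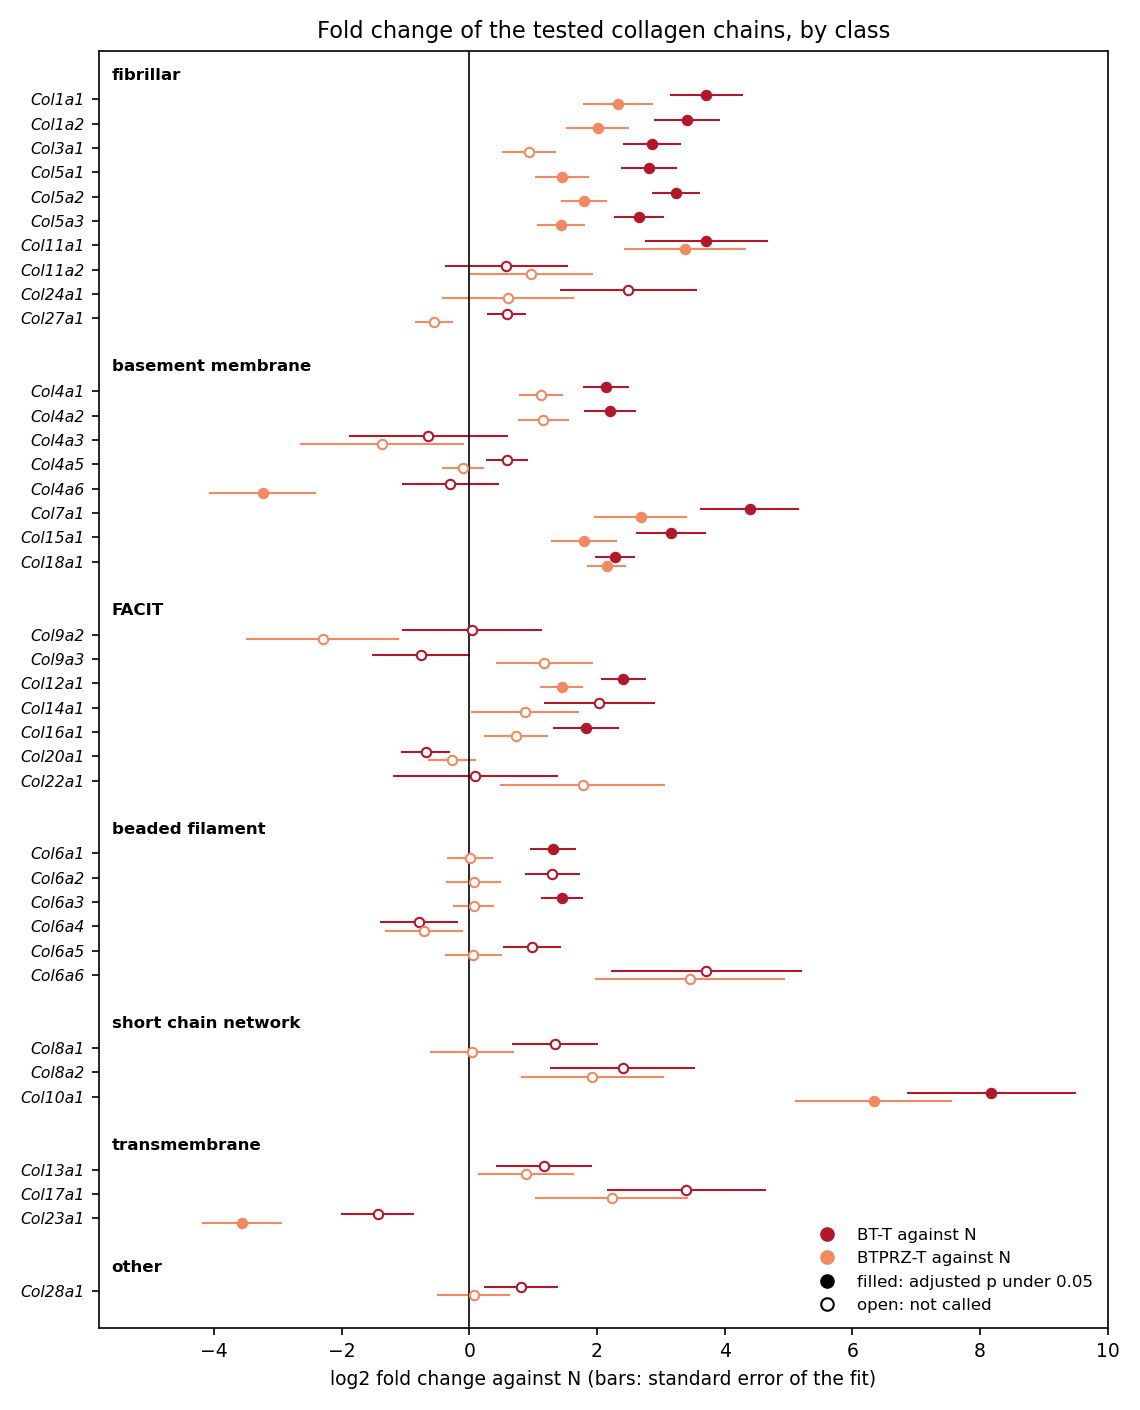
Points give the log2 fold change against N of 38 tested chains in each tumour group, by class, with bars for the standard error of the fit; filled points passed an adjusted p of 0.05. Fibrillar points lie mostly to the right of 0 in both tumour groups, while Col4a6 and Col23a1 are the filled points to its left; Col25a1, with 0 reads in BTPRZ-T, is not drawn.

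Fibrillar chains gave higher calls in both tumour groups. Of their 10 tested chains, 7 were called higher in BT-T (median log2 fold change 2.84) and 6 in BTPRZ-T (median 1.45). All-gene shares called higher were 5.67% and 5.66%. In each comparison 0 fibrillar chains were called lower, where 2.9% (BT-T) and 6.18% (BTPRZ-T) of all genes were. Col1a1 (chr11:94936224-94953042) encodes the alpha 1 chain of type I collagen, the main fibre of connective tissue. It had 1824, 3186, 3545 and 4166 CPM in BT-T libraries, 819, 840.0, 453 and 2749.8 CPM in BTPRZ-T libraries and 163, 163, 289 and 354 CPM in N libraries. Neither tumour group overlapped N, and BTPRZ-T replicate 4 lay within the BT-T range. The log2 fold change was 3.71 ± 0.58 (edgeR adjusted p = 0.00232) in BT-T and 2.33 ± 0.54 (edgeR adjusted p = 0.0161) in BTPRZ-T. Its partner chain Col1a2 (chr6:4504814-4541544) had 1937, 2642, 2731 and 3705 CPM in BT-T, 765, 739, 421 and 2250.2 CPM in BTPRZ-T and 193, 175, 291 and 379 CPM in N. Col1a2 was highest in the same library of each group as Col1a1. For Col1a2 the log2 fold change was 3.41 ± 0.52 (edgeR adjusted p = 0.00214) in BT-T and 2.01 ± 0.49 (edgeR adjusted p = 0.0201) in BTPRZ-T. Without BTPRZ-T replicate 4 the BTPRZ-T log2 fold change was 1.56 (edgeR adjusted p = 0.0330) for Col1a1 and 1.32 (edgeR adjusted p = 0.0425) for Col1a2. Each BTPRZ-T call was lost under 2 of 25 alternative fits, without N replicate 1 and with BTPRZ-T and N fitted alone.

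Col3a1 (chr1:45311538-45349706) encodes type III collagen, a homotrimer of the fine reticular fibres in gut and vessel walls. Its level was 3035, 4524, 4191 and 6888 CPM in BT-T, 1194, 865, 528 and 2299 CPM in BTPRZ-T and 474, 716, 629 and 741 CPM in N. Every BT-T library exceeded every N library, whereas the lowest BTPRZ-T library lay within the N range and the other 3 above it. Col3a1 was called in BT-T (log2 fold change 2.86 ± 0.45, edgeR adjusted p = 0.00255) and missed the threshold in BTPRZ-T (0.93 ± 0.43, edgeR adjusted p = 0.194). It was the most abundant chain per transcript length in all 3 groups, at 838 ± 291 CPM per kb in BT-T, 219.6 ± 138 in BTPRZ-T and 115 ± 21.6 in N.

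Type V chains, which seed and thin type I fibres, were called higher in both tumour groups. Col5a1 (chr2:27886425-28039514) had 402, 670.4, 657 and 764 CPM in BT-T, 181, 199, 118 and 476 CPM in BTPRZ-T and 68.3, 58.4, 104 and 124 CPM in N. The lowest BTPRZ-T library lay just under the highest N library. Its log2 fold change was 2.82 ± 0.44 (edgeR adjusted p = 0.00248) in BT-T and 1.46 ± 0.42 (edgeR adjusted p = 0.0419) in BTPRZ-T, a call lost under 11 of 25 alternatives. Col5a2 (chr1:45374321-45503282) lies beside Col3a1 on the opposite strand of chromosome 1. It had 536, 885, 721 and 747 CPM in BT-T, 235, 245, 129 and 452 CPM in BTPRZ-T and 51.3, 83.2, 87.0 and 84.5 CPM in N, with no overlap among the 3 groups. With a log2 fold change of 3.24 ± 0.38 (edgeR adjusted p = 0.000531) in BT-T and 1.79 ± 0.36 (edgeR adjusted p = 0.00734) in BTPRZ-T, Col5a2 kept its call under all 25 alternatives in each comparison. Col5a3 (chr9:20770050-20815067) was the scarcest type V chain, at 49.5, 96.6, 78.3 and 76.1 CPM in BT-T, 17.0, 28.8, 24.1 and 59.4 CPM in BTPRZ-T and 12.95, 8.05, 15.9 and 10.7 CPM in N. It stood above the N range in every tumour library, with a log2 fold change of 2.66 ± 0.39 (edgeR adjusted p = 0.00171) in BT-T and 1.44 ± 0.38 (edgeR adjusted p = 0.0276) in BTPRZ-T, a call lost under 7 of 25 alternatives.

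Col11a1 (chr3:114030540-114220718) encodes a minor fibrillar chain known from cartilage fibrils. It had 11.6, 12.1, 13.03 and 14.8 CPM in BT-T, 8.84, 6.99, 0.220 and 24.7 CPM in BTPRZ-T and 0.345, 2.17, 0.886 and 0.540 CPM in N. The BT-T libraries lay close together, whereas BTPRZ-T replicate 3 fell below all N libraries and replicate 4 above all BT-T libraries. The call in BT-T (log2 fold change 3.71 ± 0.97, edgeR adjusted p = 0.0330) was lost under 10 of 25 alternatives and that in BTPRZ-T (3.37 ± 0.95, edgeR adjusted p = 0.0380) under 14 of 25. Its partner chain Col11a2 stayed near 0.925 ± 0.416 CPM in BT-T, 1.22 ± 0.898 CPM in BTPRZ-T and 0.615 ± 0.445 CPM in N and was not called. Col24a1, a minor fibrillar chain, averaged 4.75 ± 0.772 CPM in BT-T, 1.29 ± 1.03 CPM in BTPRZ-T and 0.842 ± 0.853 CPM in N. Its BT-T libraries did not overlap N, but the adjusted p (edgeR) was 0.179. Col27a1 averaged 17.9 ± 5.34 CPM in BT-T, 8.09 ± 2.78 CPM in BTPRZ-T and 11.9 ± 1.03 CPM in N and was not called against N. Col2a1, the main fibrillar chain of cartilage, had 0 reads over the BT-T libraries, 8 over the BTPRZ-T libraries and 1 over the N libraries.

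**Figure D3:**
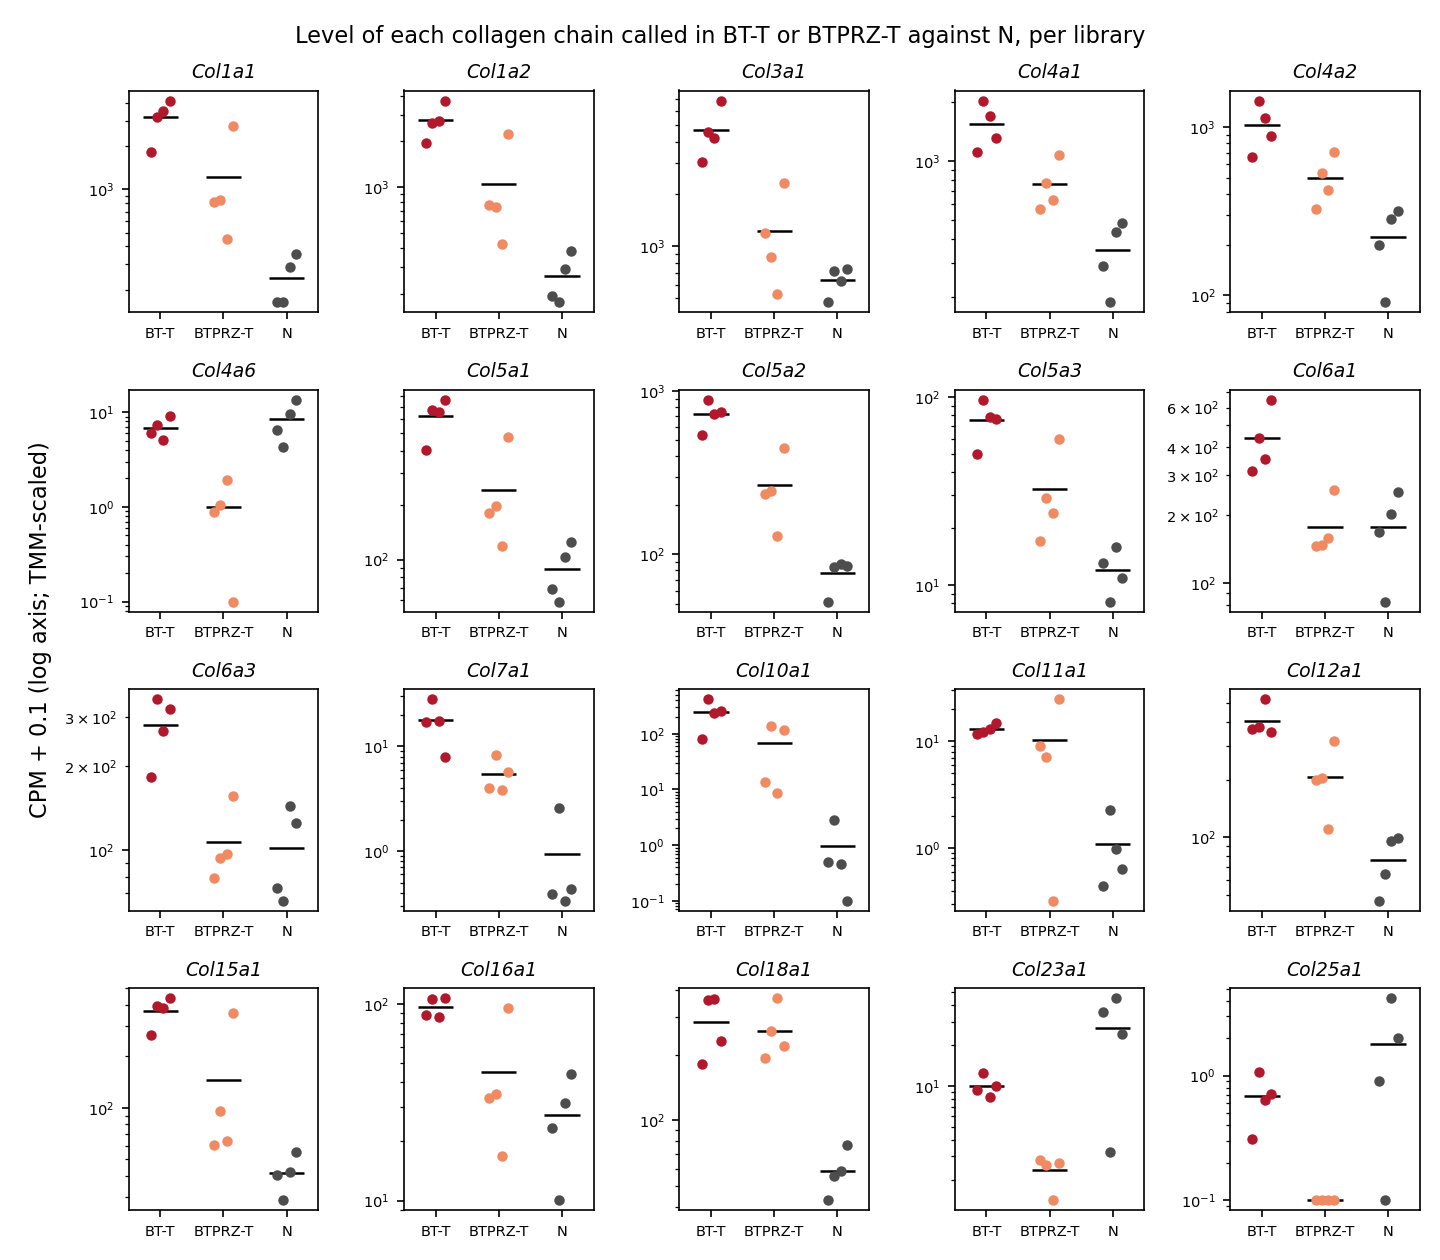
Each panel shows a chain called against N, with CPM + 0.1 on a log axis for the 4 libraries of BT-T, BTPRZ-T and N and a bar at the group mean. For Col1a1, the BT-T libraries sit between 1824 and 4166 CPM and the N libraries between 163 and 354 CPM; Col23a1 and Col4a6 show BTPRZ-T below N.

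Basement membrane chains were called in both directions. Of 8 tested chains, 5 were called higher in BT-T, and in BTPRZ-T 3 were called higher and 1 lower. Shares over all genes were 5.67%, 5.66% and 6.18% in that order. Col4a1 (chr8:11198423-11312826) and Col4a2 (chr8:11312805-11449287) form the type IV network found in nearly all basement membranes. Col4a1 had 1108, 2042, 1701 and 1319 CPM in BT-T, 569, 771, 632 and 1069 CPM in BTPRZ-T and 289, 189, 433 and 483 CPM in N. The 3 groups formed separate ranges, highest in BT-T and lowest in N. Its log2 fold change was 2.15 ± 0.36 (edgeR adjusted p = 0.00318) in BT-T and 1.13 ± 0.35 (edgeR adjusted p = 0.0551) in BTPRZ-T, just missing the threshold in the second comparison. Without N replicate 2, Col4a1 was called in BTPRZ-T (0.92, edgeR adjusted p = 0.0317). Col4a2 had 661, 1431, 1127 and 884 CPM in BT-T, 327, 535, 421 and 709.8 CPM in BTPRZ-T and 199.98, 91.0, 283 and 317 CPM in N, with a log2 fold change of 2.204 ± 0.41 (edgeR adjusted p = 0.00616) in BT-T and 1.16 ± 0.40 (edgeR adjusted p = 0.0831) in BTPRZ-T. Every tumour library of either genotype lay above the N range for Col4a2. The RefSeq starts of Col4a1 and Col4a2 lie head to head on chromosome 8, with the ends of their gene models overlapping (starts at 11312826 on the minus strand and 11312805 on the plus strand).

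The tissue-restricted type IV chains were not called higher in either tumour group. Col4a5 and Col4a6 also lie head to head, with RefSeq starts 1343 bases apart on the X chromosome (141474076 and 141475419), and are known as partners in smooth muscle basement membranes. Col4a6 (chrX:141165403-141474076) had 5.96, 7.25, 4.996 and 8.97 CPM in BT-T, 0.774, 0.957, 1.82 and 0 CPM in BTPRZ-T and 6.33, 4.20, 9.45 and 13.4 CPM in N. All BTPRZ-T libraries lay below all N and all BT-T libraries. The log2 fold change in BTPRZ-T was -3.23 ± 0.84 (edgeR adjusted p = 0.0264) and that in BT-T was -0.30 ± 0.76 (edgeR adjusted p = 0.861). Its call was lost under 6 of 25 alternatives. Col4a5 (chrX:141475385-141689234) had 22.6, 25.6, 16.9 and 31.4 CPM in BT-T, 12.2, 10.5, 15.1 and 22.3 CPM in BTPRZ-T and 12.9, 11.7, 14.4 and 25.2 CPM in N. Its groups overlapped, and it was called in neither comparison with N. Col4a3, a chain of kidney basement membrane, had 44 reads in BT-T, 20 in BTPRZ-T and 50 in N and was not called.

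Smooth muscle markers are given beside Col4a6. Of 10 such markers, 0 were called in BT-T, where 3 passed an unadjusted p of 0.05, against 24.1% of all genes. In BTPRZ-T 7 were called lower, against 6.18% of all genes. The summed level of the 10 markers ran from 4078 to 6613 CPM in BT-T and from 596 to 5171 CPM in BTPRZ-T. In N it ran from 8374 to 19756 CPM, and all 10 had reads in every group. Within groups, BTPRZ-T replicate 4 had the highest muscle sum and 0 reads of Col4a6, with at most 33 reads in any BTPRZ-T library. N replicate 2 had the highest muscle sum and the lowest Col4a6 of the N libraries. Both of these libraries were among the 3 with the fewest genes with a read, and N replicate 2 had the steepest tilt towards short transcripts. BT-T replicate 3 had both the lowest muscle sum and the lowest Col4a6 of the BT-T libraries. The parts of muscle content and of differences between libraries in the Col4a6 result were not tested.

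Col7a1 (chr9:108953586-108984875) encodes the anchoring fibril that ties an epithelial basement membrane to the matrix below. It had 17.0, 28.1, 17.4 and 7.90 CPM in BT-T, 3.94, 8.23, 3.75 and 5.59 CPM in BTPRZ-T and 0.288, 2.504, 0.236 and 0.337 CPM in N. All tumour libraries exceeded all N libraries, and N replicate 2 stood above the other N libraries. Col7a1 gave a log2 fold change of 4.39 ± 0.77 (edgeR adjusted p = 0.00427) in BT-T and 2.68 ± 0.73 (edgeR adjusted p = 0.0323) in BTPRZ-T. Without N replicate 2 it was 5.91 (edgeR adjusted p = 0.000143) in BT-T and 4.20 (edgeR adjusted p = 0.000310) in BTPRZ-T. Removing the trend on transcript length ended the call in both comparisons (edgeR adjusted p = 0.0716 in BT-T and 0.208 in BTPRZ-T). The BTPRZ-T call was lost under 9 of 25 alternatives in all, among them the fits without BTPRZ-T replicate 2 or 4 and without N replicate 1, 3 or 4. The squamous regulator Trp63 had 11 reads in BT-T, 2 in BTPRZ-T and 0 in N.

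Col15a1 and Col18a1 encode the multiplexins, basement membrane collagens that carry glycosaminoglycan chains. Col15a1 (chr4:47208161-47313167) had 266, 396, 383 and 437 CPM in BT-T, 60.1, 95.9, 63.7 and 358 CPM in BTPRZ-T and 40.5, 28.7, 42.1 and 54.8 CPM in N. Every tumour library lay above N, though in BTPRZ-T replicate 4 alone reached the BT-T range. The log2 fold change was 3.157 ± 0.55 (edgeR adjusted p = 0.00393) in BT-T and 1.80 ± 0.52 (edgeR adjusted p = 0.0418) in BTPRZ-T, where 12 of 25 alternatives lost the call. Col18a1 (chr10:77052178-77166548), the source of the fragment endostatin, had 182, 359, 364 and 232 CPM in BT-T, 195, 258, 366 and 220.0 CPM in BTPRZ-T and 42.8, 55.2, 58.7 and 77.2 CPM in N. The tumour groups covered nearly the same range, and neither overlapped N. With 2.28 ± 0.31 (edgeR adjusted p = 0.00113) in BT-T and 2.15 ± 0.31 (edgeR adjusted p = 0.00126) in BTPRZ-T, Col18a1 kept its call under all 25 alternatives in each comparison. Its log2 fold change in BTPRZ-T against BT-T was -0.13 ± 0.30 (edgeR adjusted p = 0.839).

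Among 7 tested FACIT chains, 2 were called higher in BT-T and 1 in BTPRZ-T, against 5.67% and 5.66% of all genes. Col12a1 (chr9:79598991-79718831), which coats type I fibres, had 366, 374, 527 and 356 CPM in BT-T, 199.5, 204, 110.4 and 316 CPM in BTPRZ-T and 46.5, 63.9, 94.9 and 99.5 CPM in N. Its 3 groups did not overlap. Log2 fold changes against N were 2.41 ± 0.35 (edgeR adjusted p = 0.00158) in BT-T and 1.45 ± 0.34 (edgeR adjusted p = 0.0168) in BTPRZ-T, a call lost under 3 of 25 alternatives. Col16a1 (chr4:130047840-130099283) had 87.3, 106, 85.4 and 106 CPM in BT-T, 33.2, 34.8, 16.7 and 95.2 CPM in BTPRZ-T and 23.2, 9.95, 31.1 and 44.1 CPM in N. It was called in BT-T (1.83 ± 0.51, edgeR adjusted p = 0.0450), a call lost under 8 of 25 alternatives, and in BTPRZ-T its libraries overlapped N (0.73 ± 0.50, edgeR adjusted p = 0.410). Col14a1, another coat of type I fibres, averaged 71.0 ± 47.2 CPM in BT-T, 31.8 ± 44.0 CPM in BTPRZ-T and 17.3 ± 10.98 CPM in N and was not called. Col20a1 averaged 5.98 ± 1.16 CPM in BT-T, 7.98 ± 2.21 CPM in BTPRZ-T and 9.61 ± 3.80 CPM in N and was called lower in BT-T only without N replicate 2 (alone or with BTPRZ-T replicates 1 and 4) or with sample quality weights. The other tested FACIT chains, Col9a2, Col9a3 and Col22a1, had at most 110 reads over any group and were not called. Col9a1 and Col19a1 had at most 15 reads over any group.

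Type VI collagen gave calls in BT-T. Of its 6 tested chains, 2 were called higher in BT-T and 0 in BTPRZ-T, against 5.67% and 5.66% of all genes. In BTPRZ-T 1 chain passed an unadjusted p of 0.05, against 25.5% of all genes. Col6a1 (chr10:76708792-76726168) had 314, 438, 355 and 649 CPM in BT-T, 146, 148, 159 and 259 CPM in BTPRZ-T and 169, 82.8, 202 and 253 CPM in N. Every BT-T library exceeded every library of the other groups, while BTPRZ-T lay within the N range apart from replicate 4. The log2 fold change was 1.31 ± 0.36 (edgeR adjusted p = 0.0420) in BT-T and 0.01 ± 0.36 (edgeR adjusted p = 0.990) in BTPRZ-T, where its sign differed between scaling methods. The call in BT-T was lost under 9 of 25 alternatives. Col6a3 (chr1:90765923-90843971), the largest chain of the main trimer, had 183, 348, 267 and 321 CPM in BT-T, 79.2, 94.0, 97.1 and 156 CPM in BTPRZ-T and 73.0, 65.7, 144 and 125 CPM in N. Again BT-T stood clear of both other groups, with a log2 fold change of 1.46 ± 0.33 (edgeR adjusted p = 0.0169) in BT-T and 0.07 ± 0.32 (edgeR adjusted p = 0.936) in BTPRZ-T. The BT-T call of Col6a3 was lost under 4 of 25 alternatives. Col6a2 (chr10:76595762-76623630), the chromosome 10 neighbour of Col6a1, had 280.4, 393, 315 and 588 CPM in BT-T, 139.6, 139, 146 and 247 CPM in BTPRZ-T and 159, 46.4, 206 and 229 CPM in N. Its BT-T libraries did not overlap N, but the adjusted p was above the threshold (1.30 ± 0.43, edgeR adjusted p = 0.0874). The alternative chains Col6a4, Col6a5 and Col6a6, which replace Col6a3 in some trimers, were not called. Col6a5 averaged 31.4 ± 9.33 CPM in BT-T, 16.7 ± 9.47 CPM in BTPRZ-T and 15.97 ± 2.89 CPM in N, Col6a4 averaged 10.05 ± 1.71, 10.6 ± 7.69 and 17.3 ± 12.3 CPM in the same order, and Col6a6 had 126 reads in BT-T, 110 in BTPRZ-T and 7 in N.

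Col10a1 (chr10:34389981-34397085) had the largest rise of any called chain in both comparisons with N. It encodes the short chain network collagen of hypertrophic cartilage. Its level was 79.6, 420.1, 239 and 258 CPM in BT-T, 13.4, 138, 8.59 and 118 CPM in BTPRZ-T and 0.403, 2.71, 0.354 and 0 CPM in N. No tumour library overlapped N, and BTPRZ-T libraries fell into a low pair and a high pair. Against N this gave log2 fold changes of 8.18 ± 1.32 (edgeR adjusted p = 0.00282) in BT-T and 6.34 ± 1.23 (edgeR adjusted p = 0.00629) in BTPRZ-T. N replicate 2 gave most of the N reads, and without it the log2 fold change was 9.86 (edgeR adjusted p = 0.00114) in BT-T and 8.02 (edgeR adjusted p = 0.00143) in BTPRZ-T. The call in BTPRZ-T was lost with limma voom (adjusted p = 0.104). Per transcript length Col10a1 was the ninth most abundant chain in BT-T, with 79.6 ± 44.5 CPM per kb, against 0.277 ± 0.396 CPM per kb in N.

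Of 7 collagens known from cartilage, 5 were tested, and Col10a1 and Col11a1 were called higher in each tumour group. Among 11 tested chondrocyte markers, Acan (aggrecan), Epyc (a cartilage proteoglycan) and Runx2 (a regulator of hypertrophic chondrocytes and bone) were called higher in BT-T. In BTPRZ-T Acan and Runx2 were called higher, and Hapln1 and Ihh were called lower. All-gene shares were 5.67% higher in BT-T, and 5.66% higher and 6.18% lower in BTPRZ-T. The defining markers Matn1 and Ucma had 0 reads in all groups. Summed chondrocyte markers stood at 273 to 301 CPM in BT-T, 172 to 222 CPM in BTPRZ-T and 151 to 341 CPM in N. Sox9 and Ihh, which gut epithelium also expresses, made up most of that sum, with Sox9 at 106 to 148 CPM in BT-T, 92.8 to 143 CPM in BTPRZ-T and 62.0 to 191 CPM in N. Acan had 3954 reads in BT-T, 707 in BTPRZ-T and 17 in N. Of 4 tested osteoblast markers, Spp1 and Runx2 (which is also on the chondrocyte list) were called higher in each tumour group. Dmp1 and Alpl were called in neither, and Sp7 had 5 reads in BT-T, 7 in BTPRZ-T and 5 in N. The summed osteoblast level was 787 to 1904 CPM in BT-T, 94.1 to 2105 CPM in BTPRZ-T and 9.18 to 68.0 CPM in N, and Spp1 alone ran from 762 to 1866 CPM in BT-T, from 80.1 to 2072 CPM in BTPRZ-T and from 3.71 to 61.5 CPM in N. The other short chain collagens, Col8a1 and Col8a2, known from vessel walls and the cornea, were not called. Col8a1 averaged 285 ± 79.5 CPM in BT-T, 116 ± 116 CPM in BTPRZ-T and 112 ± 72.7 CPM in N. Col8a2 averaged 20.5 ± 4.38 CPM in BT-T, 14.7 ± 21.4 CPM in BTPRZ-T and 3.87 ± 2.81 CPM in N.

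Among transmembrane chains, 2 of 4 tested were called lower in BTPRZ-T, against 6.18% of all genes. In BT-T 0 were called, and 2 passed an unadjusted p of 0.05, against 24.1% of all genes. Col23a1 (chr11:51289920-51583918) had 9.27, 12.4, 8.12 and 9.88 CPM in BT-T, 2.71, 2.49, 1.32 and 2.57 CPM in BTPRZ-T and 35.2, 3.11, 44.7 and 24.4 CPM in N. All BTPRZ-T libraries lay below all others, and N replicate 2 lay far below the other N libraries. The log2 fold change was -3.56 ± 0.62 (edgeR adjusted p = 0.00335) in BTPRZ-T and -1.44 ± 0.57 (edgeR adjusted p = 0.145) in BT-T. Without N replicate 2 it was -3.93 (edgeR adjusted p = 2.26e-05) in BTPRZ-T, and BT-T was then called lower too (-1.81, edgeR adjusted p = 0.00194). With limma voom the BTPRZ-T call was lost (adjusted p = 0.0796). Col25a1 (chr3:130131501-130599877), known from neurons and developing muscle, had 51 reads over the BT-T libraries, 0 over the BTPRZ-T libraries and 111 over the N libraries. It was at least 44.9-fold lower in BTPRZ-T than in N, with the floor set at 3 reads over the group for counting error only (edgeR adjusted p = 0.0219). N replicate 2 also had 0 reads, so the groups overlapped, and N replicate 3 held 69 of the 111 N reads. Without N replicate 3 the bound was at least 23.1-fold lower and the call was lost (edgeR adjusted p = 0.0523). Col17a1, a hemidesmosome collagen, averaged 4.52 ± 3.82 CPM in BT-T, 2.02 ± 1.97 CPM in BTPRZ-T and 0.427 ± 0.415 CPM in N. Its BT-T libraries all exceeded N, with a log2 fold change of 3.40 ± 1.24 (edgeR adjusted p = 0.117). Col13a1, known from the neuromuscular junction, averaged 5.11 ± 1.14 CPM in BT-T, 4.20 ± 1.75 CPM in BTPRZ-T and 2.26 ± 1.64 CPM in N and was not called. Of the remaining collagens, Col28a1 averaged 8.83 ± 3.94 CPM in BT-T, 5.28 ± 2.93 CPM in BTPRZ-T and 5.04 ± 2.72 CPM in N and was not called, and Col26a1 had at most 6 reads over any group.

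Promoter sequence is shown for Col10a1, with the largest rise, for Col3a1, the most abundant chain, and for Col23a1 and Col4a6, which fell in BTPRZ-T. The RefSeq promoter windows (build GRCm38.p6, from 250 bases before to 50 after an annotated start) matched 35 of the 44 genes, in 38 windows. Each stretch runs 5′ to 3′ on the gene's strand over the 100 bases before the start: Col10a1 at chr10:34389881-34389980 (plus strand), Col3a1 at chr1:45311438-45311537 (plus strand), Col23a1 at chr11:51289820-51289919 (plus strand) and Col4a6 at chrX:141474077-141474176 (minus strand). Capitals mark TATAAA in Col10a1 and, in Col23a1 and Col4a6, CCGCCC, the reverse complement of the GC box GGGCGG.
Col10a1: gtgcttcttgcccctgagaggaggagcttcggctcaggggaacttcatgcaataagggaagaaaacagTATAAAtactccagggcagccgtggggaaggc
Col3a1: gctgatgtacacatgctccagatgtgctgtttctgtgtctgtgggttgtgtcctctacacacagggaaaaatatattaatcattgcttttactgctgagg
Col23a1: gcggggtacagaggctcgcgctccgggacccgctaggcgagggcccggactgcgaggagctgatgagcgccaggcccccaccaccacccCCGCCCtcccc
Col4a6: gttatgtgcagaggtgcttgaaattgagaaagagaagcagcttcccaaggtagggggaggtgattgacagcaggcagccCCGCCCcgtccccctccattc

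The Col10a1 window holds TATAAA starting 32 bases before the start. A TATAAA on the gene's strand from 40 to 20 bases upstream was found in 1 of 38 collagen windows and in 1.994% of 32851 promoter windows. Searched on both strands of the whole window, TATAAA was in 13.16% of collagen windows and 13.62% of all windows, CCAAT in 34.21% and 37.41%, and GGGCGG in 60.53% and 35.66%. These matches describe letters in a window and carry no test.

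In BTPRZ-T against BT-T, 0 of 39 chains were called higher, against 0.155% of all genes, and 0 were called lower, against 0.599% of all genes. At an unadjusted p under 0.05, 20 chains differed, against 17.3% of all genes, and 34 of 39 log2 fold changes were negative, with a median of -1.16 beside -0.03 over all genes. The libraries of the tumour groups did not overlap in 13 of the 39 chains, against 24.2% of all genes. Col3a1 came closest to a call at -1.93 ± 0.44 (edgeR adjusted p = 0.0670) with no overlap between the groups. Next were Col6a3 at -1.39 ± 0.33 (edgeR adjusted p = 0.0745) and Col5a2 at -1.45 ± 0.35 (edgeR adjusted p = 0.0828) both without overlap. Col3a1, Col5a2 and Col6a3 all lay lower in BTPRZ-T. DESeq2 called 13 chains lower (6.18% of all genes), limma voom called 3 (1.28%), and the fit without BTPRZ-T replicate 4 called 10 (2.21%). Without the 3 libraries with the fewest genes, 23 were called lower, against 14.8% of all genes, among them Col3a1 (-2.74, edgeR adjusted p = 0.00368) and Col1a1 (-2.29, edgeR adjusted p = 0.00853), and Col9a3 was called higher. The fit without N replicate 2 called 14 chains lower, against 8.23% of all genes, and neither type I chain was among them. Whether chains were called between the tumour genotypes thus depended on the method and the libraries used.

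Calls in BTPRZ-T against N depended on the libraries fitted. Without N replicate 1, 3 of the 11 higher calls were kept (Col5a2, Col10a1 and Col18a1), and the same 3 were kept when BTPRZ-T and N were fitted alone, while 3.28% and 2.34% of all genes were called higher. Leaving out BTPRZ-T replicate 2 or 4 left 6 higher calls, and leaving out N replicate 3, BT-T replicate 1 or BT-T replicate 3 left 7, with 3.61 to 5.08% of all genes called higher in these 5 fits. Without the 3 libraries with the fewest genes, 12 were called higher, 10 of them among the 11, against 18.1% of all genes. Without N replicate 3, 1 of the 3 lower calls was kept (Col23a1), while 3.93% of all genes were called lower. Of the 14 calls in BTPRZ-T against N, 2 held under all 25 alternatives (Col5a2 and Col18a1). In BT-T against N, 12 of the 17 calls held under all 25 alternatives: Col1a1, Col1a2, Col3a1, Col4a1, Col4a2, Col5a1, Col5a2, Col5a3, Col10a1, Col12a1, Col15a1 and Col18a1.

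Chains that share a fibre or trimer were set against each other within each library, where library scaling cancels. Of 13 pairs, 7 had at least 10 reads of each chain in every library, which gave 21 exact two-sided permutation tests of 4 against 4 libraries. The smallest p such a test can give is 0.0286, and after adjustment over the 21 tests none fell under 0.05. A test at that smallest p could pass the adjustment only if most of the 21 tests reached it too. Groups without overlap could therefore still miss the threshold. Reads of Col3a1 per read of Col1a1 were 1.66, 1.42, 1.18 and 1.65 in BT-T, 1.46, 1.03, 1.17 and 0.836 in BTPRZ-T and 2.91, 4.397, 2.18 and 2.09 in N. All tumour libraries lay below all N libraries (exact permutation p = 0.0286, 0.1 after adjustment, in each comparison). Reads of Col5a1 per read of Col1a1 were 0.221, 0.210, 0.185 and 0.183 in BT-T, 0.221, 0.236, 0.261 and 0.173 in BTPRZ-T and 0.419, 0.359, 0.358 and 0.350 in N. This ratio too was lower in every tumour library than in any N library (exact permutation p = 0.0286, 0.1 after adjustment, in each comparison). Col1a2 per read of Col1a1 was 0.881 in BT-T, 0.889 in BTPRZ-T and 1.08 in N as geometric means. BTPRZ-T did not overlap N in that ratio (exact permutation p = 0.0286, 0.1 after adjustment), while BT-T did (exact permutation p = 0.0571, 0.171 after adjustment).

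Ratios within the type IV and type VI trimers were also compared. Col4a2 per read of Col4a1 was 0.656 in BT-T, 0.648 in BTPRZ-T and 0.615 in N, with overlapping groups. Col6a2 per read of Col6a1 was 0.892, 0.897, 0.889 and 0.906 in BT-T and 0.957, 0.942, 0.919 and 0.953 in BTPRZ-T, which did not overlap (exact permutation p = 0.0286, 0.1 after adjustment), and 0.944, 0.561, 1.02 and 0.905 in N. The lowest N values of Col4a2 per Col4a1 and of Col6a2 per Col6a1 came from replicate 2. Groups overlapped for Col5a2 per Col5a1 and for Col6a3 per Col6a1.

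**Figure D4:**
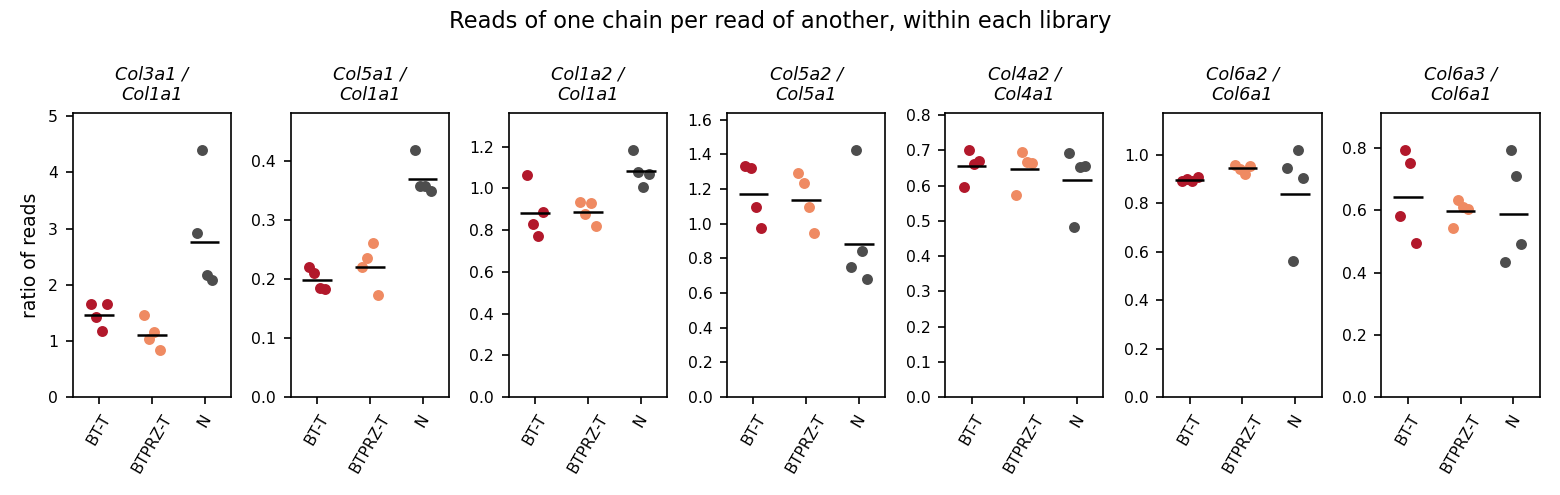
Points give reads of a chain divided by reads of another chain in the same library for 7 pairs, with axes from 0 and a bar at the geometric mean of the 4 libraries of BT-T, BTPRZ-T and N. Col3a1 per Col1a1 and Col5a1 per Col1a1 lie lower in all tumour libraries than in all N libraries, while Col4a2 per Col4a1 overlaps among the groups.

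The make-up of the collagen pool was set out per transcript length. Col3a1 made up 27.2 ± 3.40% of the summed level in BT-T, 18.9 ± 4.41% in BTPRZ-T and 25.5 ± 9.11% in N. Col1a1 made up 17.4 ± 1.89% in BT-T and 16.2 ± 4.16% in BTPRZ-T, against 8.39 ± 1.205% in N. Col6a1 made up 3.51 ± 0.563% in BT-T and 4.24 ± 1.29% in BTPRZ-T, against 8.79 ± 1.82% in N. These shares sum to 100% in each library, so a rise of some chains lowers the others, and they carry no test.

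**Figure D5:**
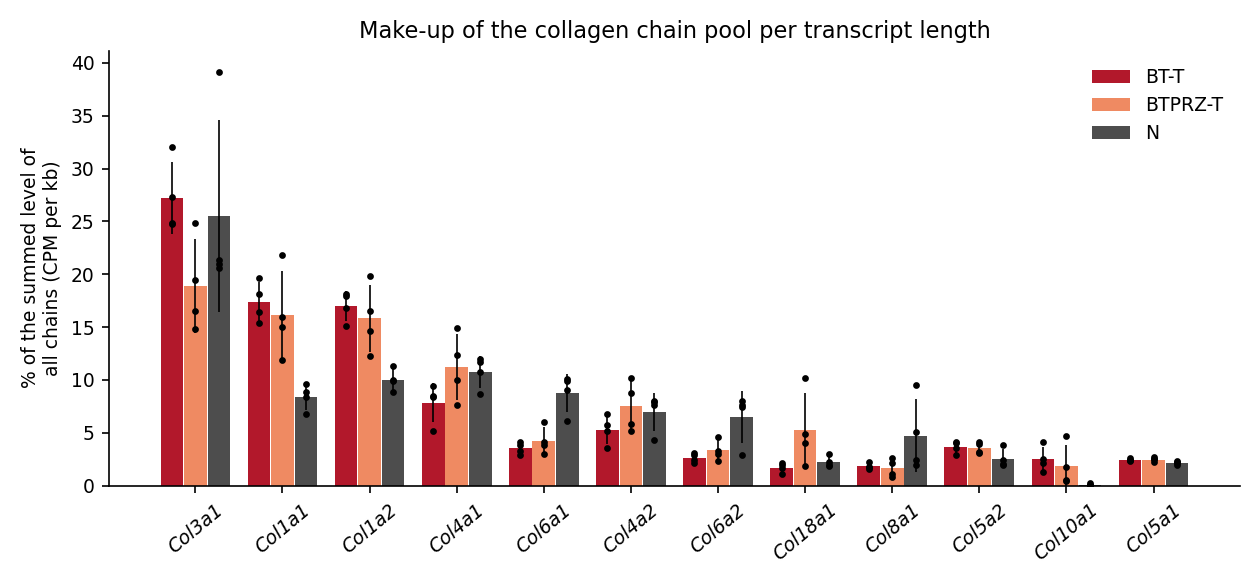
Bars give the mean percent of the summed collagen level (CPM per kb of transcript) held by the 12 chains with the largest shares in BT-T, BTPRZ-T and N, with SD bars and a point per library. Col1a1 and Col1a2 hold larger shares in both tumour groups than in N, and Col6a1 and Col6a2 hold smaller shares.

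Enzymes that mature collagen outside the cell were among the genes called higher. Of 12 tested genes of procollagen cleavage and crosslinking, 8 were called higher in BT-T, 6 were called higher in BTPRZ-T and 0 were called lower. Shares of all genes called higher were 5.67% and 5.66%, and those called lower were 2.9% and 6.18%. Lox, a lysyl oxidase that crosslinks fibres, averaged 336 ± 55.7 CPM in BT-T, 152 ± 106 CPM in BTPRZ-T and 13.6 ± 16.4 CPM in N, with a log2 fold change of 4.63 ± 0.78 (edgeR adjusted p = 0.00351) in BT-T and 3.48 ± 0.74 (edgeR adjusted p = 0.0104) in BTPRZ-T. Its relatives Loxl1, Loxl2, Loxl3 and Loxl4 were called higher in both tumour groups. Bmp1, a protease that removes the C-terminal propeptide, averaged 168 ± 20.7 CPM in BT-T, 107 ± 81.5 CPM in BTPRZ-T and 25.6 ± 6.54 CPM in N (2.72 ± 0.45, edgeR adjusted p = 0.00306, in BT-T and 2.06 ± 0.44, edgeR adjusted p = 0.0101, in BTPRZ-T). Adamts2, which removes the N-terminal propeptide, was called in BT-T (2.69 ± 0.44, edgeR adjusted p = 0.00294), and so was Pcolce, an enhancer of Bmp1. Of 21 genes of procollagen modification and folding, 4 were called higher in BT-T, 3 in BTPRZ-T, and 0 lower in either, beside the same all-gene shares. Fkbp10, a chaperone of procollagen, averaged 76.3 ± 12.1 CPM in BT-T, 45.7 ± 27.2 CPM in BTPRZ-T and 14.8 ± 1.59 CPM in N, and was called in both (2.36 ± 0.37, edgeR adjusted p = 0.00248, and 1.62 ± 0.36, edgeR adjusted p = 0.0128). Crtap, of the prolyl 3-hydroxylase complex, was called in both, Lepre1 and Leprel2 (prolyl 3-hydroxylases) in BT-T, and Glt25d1 (a collagen galactosyltransferase) in BTPRZ-T.

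Of 11 tested collagen receptors and uptake genes, 1 was called higher in BT-T, and in BTPRZ-T 1 was called higher and 2 lower. The shares over all genes were 5.67%, 5.66% and 6.18% in that order. Mrc2, which takes up collagen fragments, averaged 106 ± 32.2 CPM in BT-T, 37.6 ± 38.8 CPM in BTPRZ-T and 9.54 ± 2.85 CPM in N (3.47 ± 0.60, edgeR adjusted p = 0.00383, in BT-T and 1.98 ± 0.56, edgeR adjusted p = 0.0392, in BTPRZ-T). Ddr2, a receptor kinase for fibrillar collagen on mesenchymal cells, averaged 106 ± 25.8 CPM in BT-T, 25.2 ± 6.33 CPM in BTPRZ-T and 74.8 ± 35.0 CPM in N. It was called lower in BTPRZ-T against N (-1.57 ± 0.36, edgeR adjusted p = 0.0147) and against BT-T (-2.08 ± 0.36, edgeR adjusted p = 0.0324). Itga1, the alpha 1 integrin that binds collagen, was lower in BTPRZ-T than in N (-1.24 ± 0.33, edgeR adjusted p = 0.0302).

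Markers of other cell types were counted in the same fit. There 5.67% of all genes were called higher and 2.9% lower in BT-T, and 5.66% higher and 6.18% lower in BTPRZ-T. Of 17 fibroblast markers, 8 passed as higher in BT-T, 2 passed as higher in BTPRZ-T, and 0 passed as lower. Their summed level was 7639.8 to 11296 CPM in BT-T, 1965 to 8762 CPM in BTPRZ-T and 1536 to 2914 CPM in N, and all 17 had reads in every group. Summed endothelial markers stood at 401 to 774 CPM in BT-T, 296 to 608 CPM in BTPRZ-T and 148 to 239 CPM in N, with 4 of 10 called higher in BT-T and 2 in BTPRZ-T. Of 8 pericyte markers, 2 were called higher and 1 lower in BT-T, and 1 lower in BTPRZ-T, with summed levels of 514 to 839.7 CPM in BT-T, 233 to 414 CPM in BTPRZ-T and 257 to 512 CPM in N. Summed epithelial markers stood at 9809 to 11624 CPM in BT-T, 8586 to 18242 CPM in BTPRZ-T and 11716 to 14823 CPM in N, with 1 of 12 called higher and 1 lower in BT-T, and 1 higher in BTPRZ-T. Macrophage markers, 5 of 8 higher in BT-T and 4 in BTPRZ-T, summed to 1080.2 to 1798 CPM in BT-T, 351 to 2701 CPM in BTPRZ-T and 169 to 635 CPM in N. Of 6 enteric glia markers 0 were called in BT-T and 1 was lower in BTPRZ-T, and of 4 tested adipocyte markers 2 were lower in BT-T and 1 in BTPRZ-T. The part of these cell types in the collagen results was not tested.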

How the data were processed

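The RNA-seq used a strand-keeping kit for polyadenylated RNA and single-end reads, per the labels' protocols. The tools named in the submitters' processing notes are bcl2fastq 2.20, STAR 2.4.2a, edgeR 3.16.5, limma and HTSeq, and the build is mm10; no source used here names the annotation. The authors deposited raw counts of reads per gene symbol, not normalized, in 1 unstranded and 2 stranded columns. The stranded column with more gene reads was used. Reads that the files list as falling in no gene equal 14.16 to 22% of gene reads per library and stayed out of library sizes and tests.

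Genes were kept by filterByExpr, scaled by TMM and fitted with edgeR 4.0.16 (R 4.3.3) by a robust quasi-likelihood model over all 12 libraries with a mean per group and two-sided tests. The common biological coefficient of variation was 0.501. Levels per kb use the longest GENCODE transcript of a gene on GRCm38, the build of mm10. The fit was tested on simulated counts, and the permutation test on small sets of values with a known answer. Alternatives were RLE and upper quartile factors, other filters, DESeq2 1.42.0, limma 3.58.1 voom without and with sample quality weights, the unstranded column, each pair of groups alone, a replicate block, no robust estimation, removal of the trend on transcript length, and fits without single libraries or without the 3 with the fewest detected genes.

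The members and gene lists were chosen with earlier results of these data known. Full values are given for every chain called in a comparison and its partner chains. Called pathway genes were named. Values were given for some of them, drawn from the at most 6 per list and comparison with the lowest adjusted p. Results for the list of basal epithelial markers as a whole are not reported here.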

Additional observations from a re-analysis of the deposited data

Results flagged for a closer look

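Chain levels within groups of 4 libraries gave 116 sets for Dixon's test at its 95% critical value. For independent, normally distributed values, chance flags about 1 in 20 sets. These sets share libraries and some hold values near 0, so that rate may not apply here. In 12 of the 116 sets, the highest or lowest library lay far from its nearest neighbour for the range of the group. BTPRZ-T replicate 4 was the high library in 6 of them, with 2749.8 CPM of Col1a1, 259 CPM of Col6a1, 247 CPM of Col6a2, 4.36 CPM of Col6a6, 97.4 CPM of Col14a1 and 358 CPM of Col15a1. Its nearest neighbours in BTPRZ-T had 840.03 CPM of Col1a1, 159 CPM of Col6a1, 146 CPM of Col6a2, 0.441 CPM of Col6a6, 17.04 CPM of Col14a1 and 95.9 CPM of Col15a1. The library also had the fewest genes with a read, 13450. Within BTPRZ-T it had the highest summed fibroblast (8762 CPM), macrophage (2701 CPM), endothelial (608 CPM) and pericyte (414 CPM) markers. Its summed epithelial markers (8586 CPM) were the lowest of the group. The part of these traits in its collagen levels was not tested. N replicate 2, the N library with 10.96% of reads on ribosomal protein genes, was high for Col7a1 (2.504 CPM) and Col10a1 (2.71 CPM) and low for Col20a1 (3.93 CPM). N replicate 1 was low for Col5a2 (51.3 CPM, next lowest 83.2 CPM). BT-T replicate 3 was high for Col12a1 (527 CPM, next highest 374 CPM), and BTPRZ-T replicate 3 was low for Col23a1 (1.32 CPM, next lowest 2.49 CPM).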

How the results depend on the processing

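No chain called in a comparison changed direction under any alternative that gave a value. Higher calls in BT-T against N numbered 17, and 13 to 19 when single libraries were left out, against 3.12 to 7.79% of all genes. Sample quality weights gave 27, against 20.1% of all genes. Lower calls there were 0, but 2 with quality weights (21.3% of all genes) and 2 without the 3 libraries with the fewest genes (12.6%). Leaving out single libraries gave 0 to 2, with 2 without N replicate 2 (Col20a1 and Col23a1), against 5.7% of all genes. Higher calls in BTPRZ-T against N were 11, falling to 3 with the 2 groups alone (2.34% of all genes). They ranged over 3 to 13 when single libraries were left out (3.28 to 16.6% of all genes). Lower calls there were 3, against 1 with voom (6.12% of all genes), 6 with quality weights (28.5%) and 1 with the 2 groups alone (2.25%). The replicate block gave 1 (3.78%), and leaving out single libraries gave 1 to 3 (3.86 to 15.7%). In BTPRZ-T against BT-T, 0 higher calls became 2 with quality weights (24.5% of all genes) and 1 (Col9a3) without the 3 libraries (9.71%). The 0 lower calls became 13 with DESeq2, 3 with voom, 31 with quality weights, 9 with the 2 groups alone, 23 without the 3 libraries, and 0 to 14 when single libraries were left out. The share of all genes called lower in that comparison moved too, to 6.18% with DESeq2, 1.28% with voom, 27.6% with quality weights, 5.63% with the 2 groups alone and 14.8% without the 3 libraries, against 0.599%. With single libraries left out this share was 0 to 8.23%. Same-numbered libraries of different groups deviated with correlations from -0.297 to 0.315. Differently numbered libraries were not compared in this way, so whether the numbers pair libraries was not settled. The replicate block gave 16 higher calls in BT-T and 8 in BTPRZ-T against N, against 4.72% and 4.02% of all genes. The causes of these differences were not tested. Chains such as Col2a1 and Col26a1 had too few reads to pass the main filter.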
